A study of Mus musculus with 15 samples.

Results

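The comparison described here asks what the fusion of RUNX1 with ETO adds to, or takes away from, blood cells that already hold a mutant receptor for granulocyte colony-stimulating factor. Its members are the 6 libraries labelled CSF3R_FIRST and CSF3R_ONLY, 3 of each, out of 15 libraries in all, and they were chosen by label and not by any measured value. With the fusion, most specific granule and late maturation genes of neutrophils fell, and most mast cell and basophil genes rose. Primary granule genes divided evenly, with 4 lower and 4 higher of 8 tested, but their summed level, mostly Mpo, was lower. The lactoferrin and calprotectin genes, the gelatinase Mmp9 and the oxidase subunit Cybb were among the genes that fell. Tryptases and the mast cell carboxypeptidase Cpa3 were among the genes that rose. Genes of DNA replication and mitosis were moderately lower.

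Strand-specific mRNA libraries were made from mouse cells labelled HoxB, of cell type Blood. CSF3R_ONLY cells had the genotype CSF3R-T618I, and CSF3R_FIRST cells had CSF3R-T618I together with RUNX1-ETO, the receptor being named first. For comparison, 3 libraries labelled EMPTY held control vectors and 3 labelled RUNX1-ETO_ONLY held the fusion without the mutant receptor. The other 3 libraries, labelled RUNX1-ETO_FIRST and holding both alleles, entered only the estimate of spread between replicates. The labels do not say which promoters drove the alleles, whether a group was 1 clone or a pool, or whether CSF3R_ONLY cells received a second control vector. An effect of a second round of transduction and an effect of the fusion therefore cannot be told apart. Nor do the labels say that replicates were separate cultures, so p-values measure only the spread between these libraries, which may be technical.

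The granulocyte colony-stimulating factor receptor drives the production and maturation of neutrophils through JAK and STAT signalling, and the T618I change makes it signal without its ligand. Maturing neutrophils make their granule proteins in a set order, from primary (azurophil) through secondary (specific) to gelatinase granules, under transcription factors of the C/EBP family. RUNX1-ETO, the product of a chromosome translocation in acute myeloid leukaemia, keeps the DNA-binding domain of RUNX1 and recruits corepressors through ETO, and it is known for holding back granulocytic differentiation.

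The deposited values were raw counts per gene, 17482995 to 17653679 per library in CSF3R_ONLY and 17919315 to 18068091 in CSF3R_FIRST. Levels below are CPM, counts relative to the scaled library total, with the mean ± SD of 3 libraries. Changes are log2 fold changes with the standard error (SE), tested in edgeR on 13123 genes with adjustment by Benjamini and Hochberg at 0.05. CSF3R_FIRST replicate 3 stood apart from the other 2 libraries of its group. Its counts differed from theirs by 18.1 and 15.2 (chi-square per degree of freedom) where theirs differed from each other by 6.20, and its deviations ran against transcript length (r = −0.282 across 12820 genes, which are not independent replicates). Transcript length here stands for the log2 length covered by all annotated exons of a gene, not for that of a single transcript. The first principal component of the 6 libraries, which separated the groups, held 85.7% of the variance, and the second, which set this library apart, 5.25%. Deviations of EMPTY replicate 3 (r = −0.478), RUNX1-ETO_ONLY replicate 3 (r = −0.332) and RUNX1-ETO_FIRST replicate 1 (r = −0.273) also ran against transcript length. With CSF3R_FIRST replicate 3, these are called below the 4 libraries low in long transcripts. The first 2 enter the values for control cells. By the same chi-square, EMPTY replicate 3 stood further apart, at 69.2 and 74.7 where the other 2 libraries of EMPTY differed by 4.16. RUNX1-ETO_ONLY replicate 3 was at 18.7 and 20.3, against 5.71.

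Transcripts of the altered genes were checked first. Runx1t1, the mouse gene for ETO (chromosome 4, 13743436 to 13893649, plus strand, mm10), had 0, 0 and 0 CPM in the CSF3R_ONLY libraries and 812, 764 and 559 CPM in the CSF3R_FIRST libraries. All of its counts lay in cells with the fusion, and against a floor of 3 counts per library it was at least 4093-fold higher. Runx1, the DNA-binding partner in the fusion, had 132, 125 and 126 CPM in the CSF3R_ONLY libraries and 818, 739 and 685 CPM in the CSF3R_FIRST libraries, and the groups did not overlap (log2 2.55, SE 0.10, adjusted p = 1.22e-11). Over all genes tested, the libraries of the groups did not overlap for 28.9% in the higher and 32.5% in the lower direction. Csf3r (chromosome 4, 126024550 to 126044440, plus strand) had 617, 626 and 622 CPM in the CSF3R_ONLY libraries and 430.2, 396 and 366 CPM in the CSF3R_FIRST libraries, and it fell (log2 −0.65, SE 0.08, adjusted p = 1.17e-05). Whether the introduced sequences were human or mouse is not stated in the labels, so cellular and introduced transcripts cannot be told apart in these counts.

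Of the 13123 genes tested, 5895 (44.9%) passed the threshold, 2924 higher (22.3%) and 2971 lower (22.6%) in CSF3R_FIRST than in CSF3R_ONLY. At least 2-fold changes were found in 1304 higher genes (9.94%) and 936 lower genes (7.13%). Without CSF3R_FIRST replicate 3 the counts were 2837 higher and 2365 lower. The median change over all genes was −0.02 on the log2 scale, and −0.10 when libraries were scaled by size alone, where the split was 2520 higher and 3642 lower. Without replicate 3 the named lists moved little: 11 specific granule genes, 16 late maturation genes and 20 cell cycle genes were lower, and 18 mast cell and basophil genes were higher.

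Secreted proteins of the specific granules, which neutrophil precursors fill at the myelocyte stage, fell together apart from 1 gene. Of 12 tested genes, 11 fell and 1 rose, with a median log2 change of −2.04. Ngp, the neutrophilic granule protein (chromosome 9, 110419747 to 110423012, plus strand), had 1730.0, 1675 and 1715 CPM in the CSF3R_ONLY libraries and 72.3, 65.3 and 86.8 CPM in the CSF3R_FIRST libraries. All 3 libraries with the fusion lay far below all 3 without it, a 22.8-fold fall (log2 −4.51, SE 0.16, adjusted p = 5.31e-12). Ltf encodes lactoferrin, the iron-binding protein that defines these granules. It had 47, 51.8 and 48.2 CPM in the CSF3R_ONLY libraries and 5.84, 8.74 and 5.94 CPM in the CSF3R_FIRST libraries, and it fell 7.15-fold (log2 −2.84, SE 0.18, adjusted p = 2.31e-09). Lcn2, lipocalin 2, which withholds iron from bacteria, had 2444, 2372 and 2242 CPM in the CSF3R_ONLY libraries and 866, 814 and 1048 CPM in the CSF3R_FIRST libraries. It fell less steeply (log2 −1.37, SE 0.18, adjusted p = 1.34e-05), and the groups did not overlap.

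Other specific granule genes ranged from 1.96-fold to 12.6-fold lower. Cd177, a surface marker of neutrophils held in these granules, went from 32.7 ± 3.29 to 5.88 ± 1.08 CPM (log2 −2.47, SE 0.15, adjusted p = 2.38e-09). Camp, the cathelicidin, was scarce in both groups and went from 2.78 ± 0.196 to 0.318 ± 0.187 CPM (log2 −3.10, adjusted p = 3.78e-05). Fcnb, a ficolin, went from 6.9 ± 0.163 to 0.538 ± 0.274 CPM, and Hp, haptoglobin, from 672 ± 12 to 221 ± 8.26 CPM. The collagenase Mmp8, also known from neutrophils, went from 159 ± 13.5 to 76.1 ± 4.25 CPM (log2 −1.07). Chil3, a chitinase-like protein made by neutrophil precursors and by some macrophages, was the member that rose, from 29.7 ± 1.62 to 76.1 ± 8.13 CPM (log2 1.36, SE 0.14, adjusted p = 7.25e-07).

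Genes of late maturation, whose products load gelatinase granules, the cytosol and the surface of band and segmented neutrophils, mostly fell too. Of 21 tested genes, 16 fell, 3 rose and 2 did not pass, with a median log2 change of −1.79. Mmp9, gelatinase B (chromosome 2, 164940780 to 164955850, plus strand), had 53.4, 51.5 and 50 CPM in the CSF3R_ONLY libraries and 3.19, 2.18 and 3.15 CPM in the CSF3R_FIRST libraries, a 18.2-fold fall (log2 −4.18, SE 0.20, adjusted p = 1.37e-10). S100a8, a subunit of calprotectin, the main cytosolic protein of neutrophils (chromosome 3, 90668978 to 90670035, plus strand), had 1049, 920.3 and 924 CPM in the CSF3R_ONLY libraries and 141, 164 and 218 CPM in the CSF3R_FIRST libraries. Among the fusion-bearing libraries replicate 3 was the highest, and it still lay below every CSF3R_ONLY library (log2 −2.46, SE 0.23, adjusted p = 2.71e-07). The partner subunit S100a9 had 1273, 1238 and 1135 CPM in the CSF3R_ONLY libraries and 214, 278 and 329.7 CPM in the CSF3R_FIRST libraries, and it fell alike (log2 −2.15, SE 0.22, adjusted p = 8.05e-07). Retnlg, a resistin-like protein of mature mouse neutrophils, had 34.9, 36.8 and 29.1 CPM in the CSF3R_ONLY libraries and 3.07, 4.07 and 4.43 CPM in the CSF3R_FIRST libraries, and the groups did not overlap (log2 −3.12, SE 0.19, adjusted p = 1.5e-09).

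Ifitm6, an interferon-induced transmembrane protein of myeloid cells (chromosome 7, 141015699 to 141017924, minus strand), fell further still. It had 196, 215 and 195 CPM in the CSF3R_ONLY libraries and 4.27, 5.67 and 6.25 CPM in the CSF3R_FIRST libraries, a 37.4-fold difference (log2 −5.22, SE 0.16, adjusted p = 7.52e-13). Mmp25, a membrane-bound matrix protease of neutrophils, went from 5.35 ± 0.551 to 0.439 ± 0.123 CPM, Wfdc21 from 49.5 ± 3.55 to 9.34 ± 3.03 CPM and the stefin Stfa2l1 from 605 ± 22.8 to 175 ± 28.2 CPM. Anxa1, annexin A1, abundant in neutrophils, went from 1934 ± 22.6 to 530.1 ± 41.1 CPM (log2 −1.87, SE 0.10, adjusted p = 2.65e-10), and the decoy receptor gene Il1r2 from 190.2 ± 7.25 to 39.9 ± 3.56 CPM (log2 −2.25). Ly6g, the marker by which mouse neutrophils are sorted, was near the limit of detection and went from 2.11 ± 0.128 to 0.541 ± 0.268 CPM (log2 −1.95, adjusted p = 0.000436). The exceptions were Adam8, a membrane metalloprotease, which rose from 178 ± 2.3 to 338 ± 15 CPM, Padi4, the enzyme of histone citrullination, which rose from 134 ± 6.37 to 182 ± 2.27 CPM, and the lectin receptor Clec4e, from 124 ± 3.72 to 167 ± 14.2 CPM. Alox5ap, which presents arachidonate to 5-lipoxygenase, went from 537 ± 3.63 to 556 ± 42.1 CPM and did not pass the test (log2 0.05, interval −0.21 to 0.31, adjusted p = 0.772).

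In the same libraries the mast cell and basophil list, described further below, summed over its 22 genes to levels that ran from 6564 to 6736 CPM in the CSF3R_ONLY libraries and from 37304 to 42338 CPM in the CSF3R_FIRST libraries, with no member at 0 in either group. Summed in the same way, the 13 specific granule genes ran from 5434 to 5680 and from 1516 to 1841 CPM, and the 22 late maturation genes from 7439 to 7753 and from 2962 to 3430 CPM. In EMPTY the specific granule sum ran from 1062 to 1741 CPM and the late maturation sum from 1574 to 2131 CPM. Both falls thus started from sums above those of EMPTY and did not end below them. Single genes such as Ngp, described below, did end under their EMPTY level. In bulk RNA, fewer cells of a type and less RNA per cell cannot be told apart, and the part of a changed mixture of cells in these results was not tested.

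The promoters of genes in these lists were read for short motif letters, since RUNX1-ETO keeps the DNA-binding domain that recognises TGTGGT. In the 150 bases upstream of the RefSeq start, on either strand, TGTGGT stood in 0 of 11 specific granule genes and 5 of 18 late maturation genes with a promoter in the table. Among promoters of all genes tested the share was 5.92% of 12468. The sequences of S100a9 and Ifitm6 are shown as examples of genes that fell and carry the letters (RefSeq, GRCm38.p6; 5′ to 3′ in the direction of the gene). Of the other 3 late maturation genes with the letters, Clec5a (log2 −1.52) and Lyz2 (log2 −0.52) fell and Clec4e (log2 0.43) rose. Capitals mark TGTGGT or its reverse complement, the GATA letters AGATAA in S100a9 and the reverse complement of the ETS letters GGAAGT in Ifitm6.
S100a9 (chr3:90695722-90695871, minus strand): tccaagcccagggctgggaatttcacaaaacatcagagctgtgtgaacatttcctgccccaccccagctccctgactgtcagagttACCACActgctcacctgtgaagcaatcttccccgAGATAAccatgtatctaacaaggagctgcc
Ifitm6 (chr7:141016893-141017042, minus strand): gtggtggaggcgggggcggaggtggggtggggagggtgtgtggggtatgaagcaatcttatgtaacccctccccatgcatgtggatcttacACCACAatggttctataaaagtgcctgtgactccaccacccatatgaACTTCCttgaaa
A match of letters is a description, not a binding site, and binding was not measured.

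**Figure D1:**
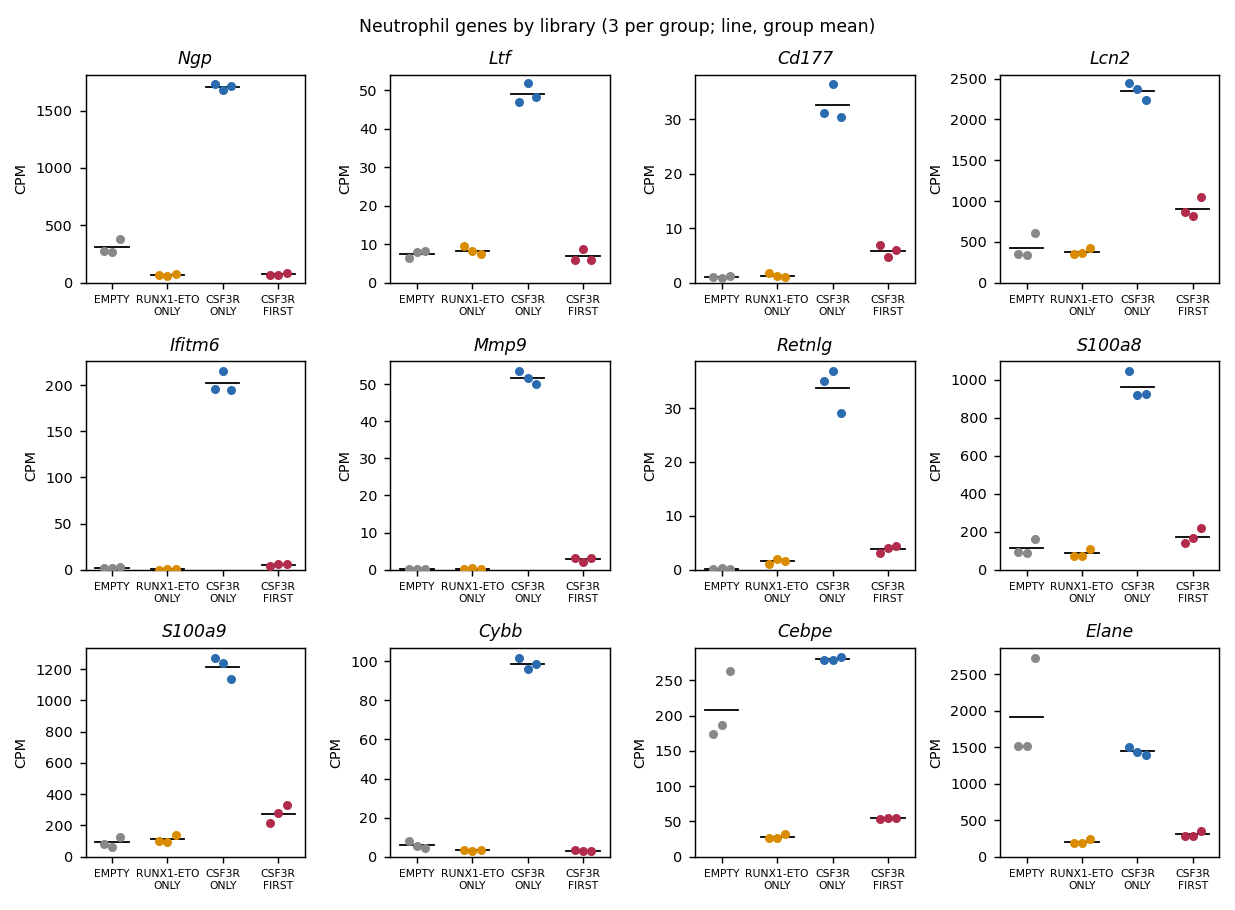
Level in CPM (linear axis from 0) of 12 neutrophil genes in each library of 4 groups, with points for libraries and a line at the mean of 3. In every panel the 3 CSF3R_FIRST libraries lie below the 3 CSF3R_ONLY libraries, for Ngp at 65.3 to 86.8 against 1675 to 1730 CPM. The 12 genes were picked, and all of them fell. Members of the same lists that rose, such as Chil3, Adam8, Padi4, Clec4e, Ctsg and Ctsc, are not drawn.

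Primary granule genes, which are switched on in promyelocytes before the other granules form, divided evenly. Of 8 tested, 4 fell and 4 rose, with a median log2 change of −0.38. The 9 genes of the list summed to 32785 to 33205 CPM in CSF3R_ONLY and to 18993 to 19652 CPM in CSF3R_FIRST. Mpo made up most of both sums. Elane, neutrophil elastase, had 1501, 1440.3 and 1393 CPM in the CSF3R_ONLY libraries and 287, 278 and 345 CPM in the CSF3R_FIRST libraries, and it fell 4.77-fold (log2 −2.25, SE 0.20, adjusted p = 1.53e-07). Mpo, myeloperoxidase, remained very abundant, with 25469, 25552 and 25853 CPM in the CSF3R_ONLY libraries and 13205, 12205 and 11885 CPM in the CSF3R_FIRST libraries (log2 −1.04, SE 0.09, adjusted p = 1.14e-07). The proteases Prtn3 and Prss57 also fell, from 1944 ± 71.6 to 864 ± 60.4 CPM and from 284 ± 9.02 to 93.2 ± 4.78 CPM. Cathepsin G (Ctsg) had 2735, 2741 and 2737 CPM in the CSF3R_ONLY libraries and 3484, 3754 and 4162 CPM in the CSF3R_FIRST libraries, and the groups did not overlap in the other direction (log2 0.47, SE 0.12, adjusted p = 0.00538). Ctsc, which activates these proteases, rose from 132 ± 4.03 to 268 ± 4.05 CPM, the granule membrane protein Cd63 from 473 ± 12.7 to 1161 ± 114 CPM and Gusb, a lysosomal glucuronidase, from 352 ± 14.8 to 426 ± 7.75 CPM. Ctsc, Cd63 and Gusb are active in many cell types, so the list is not specific to neutrophils.

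Receptors and adhesion molecules of neutrophils fell in 15 of 20 tested genes and rose in 4, with a median log2 change of −1.06. Ptafr, the receptor for platelet-activating factor, had 22.7, 21.4 and 22.1 CPM in the CSF3R_ONLY libraries and 3.25, 4.07 and 3.88 CPM in the CSF3R_FIRST libraries (log2 −2.56, SE 0.19, adjusted p = 2.47e-08). Trem3, an activating receptor of myeloid cells, went from 45.2 ± 1.68 to 8.02 ± 1.96 CPM (log2 −2.49), and Tlr2, a receptor for bacterial lipoproteins, from 46.6 ± 0.982 to 10.7 ± 1.6 CPM (log2 −2.13). Clec7a, the beta-glucan receptor dectin-1, rose from 5.33 ± 0.877 to 23.8 ± 1.44 CPM (log2 2.15, SE 0.20, adjusted p = 3.25e-07). Selplg, the ligand of P-selectin, went from 949 ± 35.9 to 1064 ± 39.4 CPM and did not pass the test (log2 0.17, interval −0.06 to 0.39, adjusted p = 0.22).

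The NADPH oxidase makes the superoxide with which phagocytes kill microbes, and 4 of its 6 tested genes fell, with a median log2 change of −0.56. Cybb, the catalytic subunit gp91phox (chromosome X, 9435252 to 9487771, minus strand), had 102, 96 and 98.9 CPM in the CSF3R_ONLY libraries and 3.31, 2.83 and 3.03 CPM in the CSF3R_FIRST libraries. The fall was 32.3-fold (log2 −5.01, SE 0.17, adjusted p = 1.83e-12), and in cells without the mutant receptor Cybb was at 5.9 ± 1.76 CPM in EMPTY and 3.27 ± 0.207 CPM in RUNX1-ETO_ONLY. Ncf1, a cytosolic subunit (p47phox), fell from 766 ± 16.2 to 297 ± 13.4 CPM (log2 −1.36, SE 0.06, adjusted p = 6.35e-11), and Ncf4 from 225 ± 3.17 to 146 ± 5.38 CPM. Cyba, the membrane partner of Cybb, went from 308 ± 8.04 to 231 ± 24.6 CPM (log2 −0.42, interval −0.79 to −0.04, adjusted p = 0.0703) and Rac2, the small GTPase of the complex, from 1599 ± 81.4 to 1468 ± 76.9 CPM (log2 −0.12, interval −0.37 to 0.13, adjusted p = 0.419). Neither of these 2 passed the test. Cyba passed, as lower, in 5 alternative fits, with adjusted p from 1.85e-09 without the libraries low in long transcripts to 0.0373 with the replicate number as a block.

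Transcription factors of granulocyte development were lower in 8 of 10 tested genes and higher in 2, with a median log2 change of −0.93. Cebpe, which switches on specific granule genes (chromosome 14, 54710360 to 54712174, minus strand), had 279, 279 and 283 CPM in the CSF3R_ONLY libraries and 53.2, 54.4 and 55.1 CPM in the CSF3R_FIRST libraries. The fall was 5.17-fold (log2 −2.37, SE 0.14, adjusted p = 9.95e-10). Cebpa, the factor that commits progenitors to the granulocyte lineage, went from 653 ± 31.9 to 372 ± 19.4 CPM (log2 −0.81, SE 0.07, adjusted p = 1.52e-07). Cebpd went from 120.0 ± 7.49 to 40.05 ± 3.52 CPM (log2 −1.58), Cebpb, used in emergency granulopoiesis, from 175 ± 12.4 to 85 ± 1.98 CPM (log2 −1.04) and Spi1, the gene for PU.1, from 699.9 ± 12 to 330.1 ± 19.2 CPM (log2 −1.08). Gfi1, a repressor needed for neutrophil formation, fell less, from 169 ± 6.49 to 129 ± 4.91 CPM (log2 −0.39, SE 0.06, adjusted p = 9.98e-05). Klf5 and Xbp1 were lower as well, and Xbp1 (log2 −0.37, adjusted p = 0.0112) did not pass without CSF3R_FIRST replicate 2 (adjusted p = 0.0568). Rara, a retinoic acid receptor, rose from 46.8 ± 5.95 to 77.3 ± 5.11 CPM and Klf2 from 29.8 ± 1.65 to 51.1 ± 0.981 CPM.

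The fusion was also followed in cells without the mutant receptor, through RUNX1-ETO_ONLY against EMPTY, which shares no library with the main comparison. There 5117 genes passed (39.0%), 2724 higher (20.8%) and 2393 lower (18.2%). In these control cells the specific granule list fell in 4 genes and rose in 3 of 12, with a median of −0.24, and the late maturation list fell in 8 and rose in 5 of 21, with a median of −0.14. The difference between the fusion's changes in receptor and in control cells was tested gene by gene. Across all genes 3004 (22.9%) differed, 1368 with a higher change in receptor cells (10.4%) and 1636 with a lower one (12.5%). When libraries were scaled by library size alone the split became 1003 higher and 2725 lower, and the median difference over all genes −0.20. In 9 of 12 specific granule genes and 12 of 21 late maturation genes the change was lower in receptor cells, and in 1 and 3 it was higher. Without CSF3R_FIRST replicate 3 these counts were 8 and 11, and 1 and 4.

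Single genes of these lists did not share 1 pattern. Ltf was at 7.52 ± 0.942 CPM in EMPTY and 8.36 ± 1.03 CPM in RUNX1-ETO_ONLY, and its change there did not pass (log2 0.16, adjusted p = 0.531; difference −2.99 on the log2 scale, interval −3.53 to −2.46, adjusted p = 6.02e-07). S100a8 was at 113 ± 41.1 CPM in EMPTY and 86 ± 19.97 CPM in RUNX1-ETO_ONLY (log2 −0.39, adjusted p = 0.18; difference −2.07 on the log2 scale, interval −2.74 to −1.41, adjusted p = 0.000182). Both genes lay far below their CSF3R_ONLY level in control cells, with or without the fusion. Retnlg was at 0.189 ± 0.0842 CPM in EMPTY and 1.53 ± 0.391 CPM in RUNX1-ETO_ONLY (log2 2.97, adjusted p = 2.39e-05; difference −6.09 on the log2 scale, interval −6.99 to −5.19, adjusted p = 8.85e-08). Ngp fell in both settings, at 309.6 ± 60.7 CPM in EMPTY and 66.1 ± 5.74 CPM in RUNX1-ETO_ONLY (log2 −2.23, adjusted p = 7.43e-09), and by more in receptor cells (difference −2.28 on the log2 scale, interval −2.72 to −1.85, adjusted p = 1.2e-06). Mmp8 rose in control cells, at 3.02 ± 0.421 CPM in EMPTY and 11.3 ± 1.46 CPM in RUNX1-ETO_ONLY, and fell in receptor cells (difference −2.97 on the log2 scale, interval −3.31 to −2.63, adjusted p = 8.07e-09).

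For the transcription factors the change was higher in receptor cells in 1 of 10 genes and lower in 2. Over all genes tested these shares were 10.4% and 12.5%. In control cells 8 of 10 fell and 1 rose, with a median of −0.92, and 7 of the 10 differences did not pass. Cebpe was at 208 ± 47.7 CPM in EMPTY and 28.1 ± 3.5 CPM in RUNX1-ETO_ONLY (log2 −2.89, adjusted p = 1.57e-10; difference 0.52 on the log2 scale, interval 0.12 to 0.91, adjusted p = 0.0569). With the replicate number as a block, the difference for Cebpe passed (adjusted p = 0.0475) and members with a higher change numbered 2 in place of 1. Cebpd (difference 0.02 on the log2 scale, interval −0.42 to 0.45, adjusted p = 0.972), Cebpa (difference 0.17 on the log2 scale, interval −0.04 to 0.39, adjusted p = 0.233) and Spi1 (difference 0.15 on the log2 scale, interval −0.32 to 0.62, adjusted p = 0.665) had intervals on both sides of 0. A difference that does not pass does not show equal changes. Of the primary granule genes, 6 of 8 had a higher change in receptor cells and 0 a lower one. Elane is an example, at 1919 ± 702 CPM in EMPTY and 199.8 ± 30.8 CPM in RUNX1-ETO_ONLY (log2 −3.26, adjusted p = 3.97e-09; difference 1.01 on the log2 scale, interval 0.44 to 1.58, adjusted p = 0.0127), and its difference did not pass when no filter on low counts was used (adjusted p = 0.0517).

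**Figure D2:**
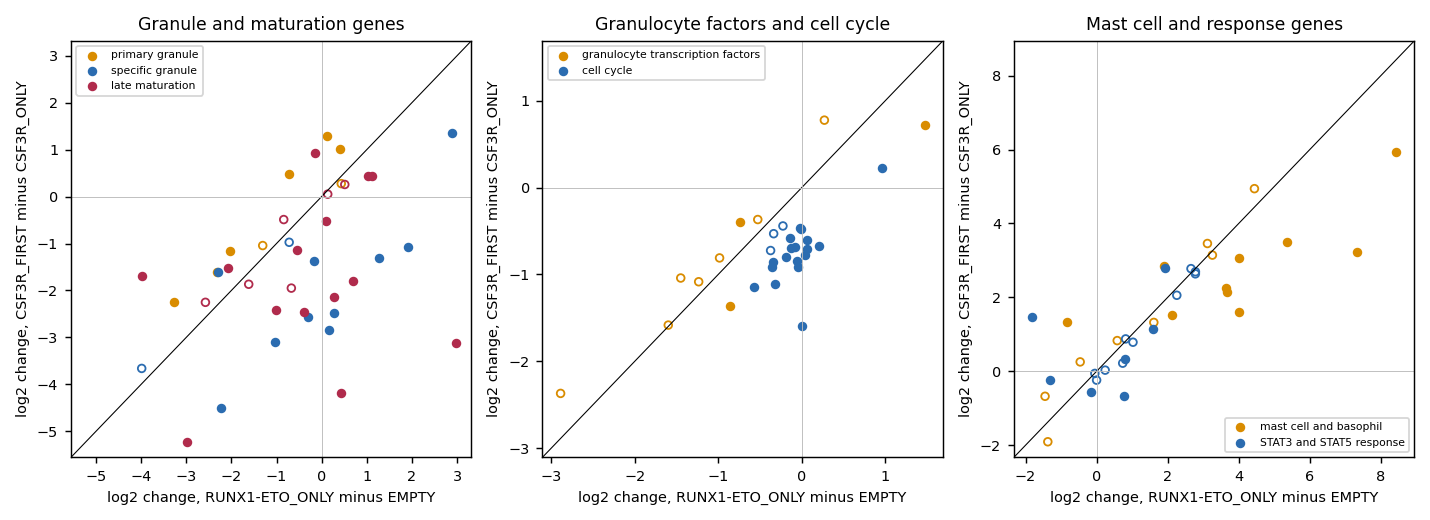
Log2 change with the fusion in control cells (horizontal) against that in receptor cells (vertical) for members of 7 lists, with filled points where the difference passed the threshold, open points where it did not and the line of equal change; genes with 3 or fewer counts in any of the 4 groups are not drawn. Specific granule and late maturation genes lie mostly below the line, granulocyte factors lie on both sides of it, and cell cycle genes lie below it around −0.71 vertically.

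Most mast cell and basophil genes rose. Mast cells store proteases and histamine and respond to IgE, and basophils share many of these genes. Of 22 tested, 18 rose, 1 fell and 3 did not pass, with a median log2 change of 2.33. Cpa3, the mast cell carboxypeptidase and a defining marker, had 1870.1, 1848 and 1794 CPM in the CSF3R_ONLY libraries and 15204, 14785 and 18732 CPM in the CSF3R_FIRST libraries. Every fusion-bearing library was several times above every other, and replicate 3 was the highest (log2 3.14, SE 0.17, adjusted p = 6.07e-10). Tpsb2, a beta-tryptase (chromosome 17, 25366305 to 25369098, plus strand), had 37.2, 38.1 and 38.1 CPM in the CSF3R_ONLY libraries and 2241, 2189 and 2532 CPM in the CSF3R_FIRST libraries, a 61.4-fold rise (log2 5.94, SE 0.16, adjusted p = 2.57e-13). Tpsab1, the neighbouring tryptase gene (chromosome 17, 25343245 to 25345562, minus strand), had 2.22, 1.45 and 1.61 CPM in the CSF3R_ONLY libraries and 201, 211 and 195 CPM in the CSF3R_FIRST libraries (log2 6.84, SE 0.16, adjusted p = 9.21e-14). Both tryptases were scarce in CSF3R_ONLY. Their sequences are alike, and reads shared between them may have been split by the counting.

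Receptor genes of the same cells rose as well. Fcer1a, the IgE-binding chain of the high-affinity receptor, had 19.1, 21.8 and 16.7 CPM in the CSF3R_ONLY libraries and 89.6, 98.4 and 119.6 CPM in the CSF3R_FIRST libraries (log2 2.41, SE 0.12, adjusted p = 2.15e-09), and Ms4a2, its beta chain, had 84.1, 83.8 and 82 CPM in the CSF3R_ONLY libraries and 360.0, 369 and 382 CPM in the CSF3R_FIRST libraries (log2 2.15, SE 0.07, adjusted p = 8.88e-13). Kit, the receptor for stem cell factor, went from 86.2 ± 7.4 to 219 ± 16.1 CPM (log2 1.34, SE 0.08, adjusted p = 1.68e-09) and the basophil protease Mcpt8 from 530.4 ± 3.02 to 1326 ± 132 CPM (log2 1.32, SE 0.15, adjusted p = 1.9e-06). Tpsg1, the membrane-anchored tryptase, went from 13.9 ± 0.237 to 428 ± 37.3 CPM (log2 4.94, SE 0.11, adjusted p = 7.49e-14). Chosen after their values were seen, Il1rl1 (the IL-33 receptor) went from 175 ± 5.2 to 1989 ± 163 CPM (log2 3.50), Hdc (histidine decarboxylase, which makes histamine) from 838 ± 24 to 6074 ± 243 CPM (log2 2.86), Cma1 (a chymase) from 359 ± 8.08 to 3379.9 ± 337 CPM (log2 3.23) and Gata2, a transcription factor of mast cells and basophils, from 497 ± 22.9 to 1432 ± 111 CPM (log2 1.53). Gzmb, granzyme B, also chosen so, was the 1 member that fell, from 181 ± 3.5 to 48.3 ± 2.31 CPM (log2 −1.91, SE 0.21, adjusted p = 2.45e-06). Fcer1g, the gamma chain shared by several Fc receptors, did not pass (log2 0.25, interval −0.15 to 0.66, adjusted p = 0.306). It passed, as higher, when only the compared groups were fitted (adjusted p = 0.0115) and when the libraries low in long transcripts were left out (adjusted p = 0.00544).

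The chymase genes Mcpt4 and Mcpt1 behaved unlike each other. Mcpt4 had 34.4, 32.2 and 30.2 CPM in the CSF3R_ONLY libraries and 692, 693 and 712 CPM in the CSF3R_FIRST libraries (log2 4.44, SE 0.14, adjusted p = 1.33e-12). Mcpt1 had 901, 925 and 854 CPM in the CSF3R_ONLY libraries and 537, 511 and 630.0 CPM in the CSF3R_FIRST libraries, with the groups apart but in the other direction (log2 −0.68, interval −1.30 to −0.05, adjusted p = 0.0726). It did not pass here, but it passed as lower in 5 alternative fits, with adjusted p from 1.62e-15 when the libraries low in long transcripts were left out to 0.0474 with the replicate number as a block. Their upstream sequences are shown because they are close copies, identical in 134 of 156 aligned positions (85.9%), and both hold TGTGGT, marked in capitals (RefSeq, GRCm38.p6, 5′ to 3′ in the direction of the gene).
Mcpt4 (chr14:56062311-56062460, minus strand): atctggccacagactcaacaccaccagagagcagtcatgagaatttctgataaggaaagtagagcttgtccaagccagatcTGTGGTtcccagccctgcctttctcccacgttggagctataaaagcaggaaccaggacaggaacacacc
Mcpt1 (chr14:56017814-56017963, plus strand): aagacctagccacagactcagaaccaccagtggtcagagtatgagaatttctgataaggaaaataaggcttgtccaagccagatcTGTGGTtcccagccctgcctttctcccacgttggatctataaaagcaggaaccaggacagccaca
Of 19 mast cell and basophil genes with a promoter in the table, 10 held TGTGGT (in 10 of their 25 promoters) and 6 held AGATAA on either strand, where 5.92% and 3.32% of promoters of all tested genes did. Of the 10 with TGTGGT, Gzmb fell, Mcpt1 and Mrgprb2 did not pass and the other 7 rose. AGATAA also stood in 3 of 11 specific granule genes, of which Ltf and Pglyrp1 fell and Chil3 rose, and in 1 of 18 late maturation genes. The ETS letters stood in 4 specific granule, 9 late maturation and 0 mast cell and basophil genes, against 17.6% of promoters of tested genes. For the C/EBP letters TTGCAA these were 0, 2 and 0, against 1.92%. The mast cell proteases and tryptases are related by descent, so the genes are not independent.

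**Figure D3:**
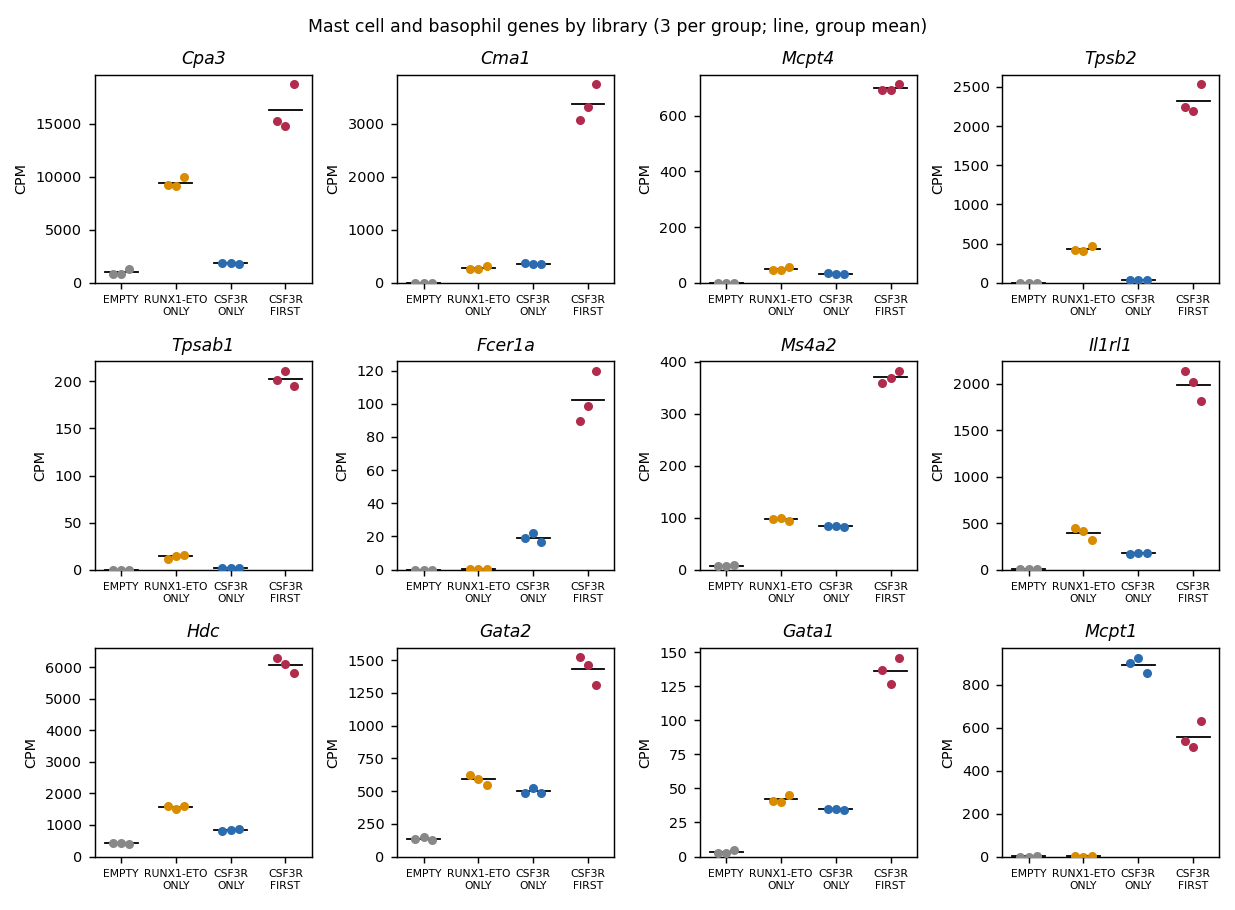
Level in CPM (linear axis from 0) of 12 mast cell and basophil genes in each library of 4 groups, with points for libraries and a line at the mean of 3. All panels but that of Mcpt1 have the 3 CSF3R_FIRST libraries highest, for Tpsb2 at 2189 to 2532 CPM. The 12 genes were picked, and the panels do not stand for the whole list. Gzmb, which fell, and Fcer1g and Mrgprb2, which did not pass, are not drawn. Kit, which was higher in EMPTY than in CSF3R_FIRST, is not drawn either. Gata1 is described with the erythroid and megakaryocyte genes.

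With the fusion, 18 of these 22 genes rose in control cells too, with a median of 3.65. The difference was lower in receptor cells for 11 genes and higher for 2. Many of these genes already had counts in CSF3R_ONLY. Ms4a2, for example, was at 7.62 ± 0.601 CPM in EMPTY and 97.1 ± 3.4 CPM in RUNX1-ETO_ONLY (log2 3.67, adjusted p = 3.57e-14; difference −1.52 on the log2 scale, interval −1.72 to −1.32, adjusted p = 3.35e-08). Cpa3 was at 986 ± 283 CPM in EMPTY and 9435 ± 487 CPM in RUNX1-ETO_ONLY, and its difference did not pass (difference −0.12 on the log2 scale, interval −0.60 to 0.37, adjusted p = 0.753). Kit fell in control cells and rose in receptor cells, at 331 ± 18.1 CPM in EMPTY and 187 ± 5.1 CPM in RUNX1-ETO_ONLY (difference 2.17 on the log2 scale, interval 1.93 to 2.41, adjusted p = 7.14e-09).

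Other myeloid markers moved in both directions. Eosinophil genes fell in 4 of 5 tested and rose in 0, with a median of −2.22. Prg2, the major basic protein, had 98.8, 99.9 and 96.7 CPM in the CSF3R_ONLY libraries and 11, 11 and 14.4 CPM in the CSF3R_FIRST libraries (log2 −3.02, SE 0.18, adjusted p = 1.37e-09), and the groups lay far apart. Prg3, its paralog, went from 35.8 ± 2.25 to 3.46 ± 1.31 CPM (log2 −3.37), Epx, eosinophil peroxidase, from 2.51 ± 0.128 to 0.681 ± 0.133 CPM (log2 −1.88) and the lectin Siglecf from 143 ± 3.21 to 30.6 ± 2.48 CPM (log2 −2.22). Il5ra, the IL-5 receptor chain, did not pass (log2 −0.14, interval −0.50 to 0.22, adjusted p = 0.533). The 9 genes summed to 279.6 to 290.7 CPM in CSF3R_ONLY and 46.3 to 55.1 CPM in CSF3R_FIRST, with Ear1 at 0 in the first and Ear1, Ear2 and Ear6 at 0 in the second.

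Monocyte and macrophage genes rose in 9 of 16 tested and fell in 5, with a median of 0.48. Csf1r, the receptor that sustains macrophages, rose from 19.2 ± 1.31 to 29 ± 1.27 CPM (log2 0.60, SE 0.09, adjusted p = 3.45e-05) and Adgre1, the gene for F4/80, from 71.3 ± 3.67 to 196 ± 6.82 CPM (log2 1.46, SE 0.07, adjusted p = 2.34e-10). Ccr2, the chemokine receptor of inflammatory monocytes, had 96.4, 98.1 and 95 CPM in the CSF3R_ONLY libraries and 22.3, 26.3 and 24.7 CPM in the CSF3R_FIRST libraries, and it fell (log2 −1.98, SE 0.12, adjusted p = 1.14e-09). Irf8, a transcription factor of monocytes and dendritic cells, rose from 0.928 ± 0.253 to 7.61 ± 0.426 CPM (log2 3.03, SE 0.15, adjusted p = 2.3e-10) and Ms4a6c from 11.4 ± 0.294 to 68.5 ± 4.11 CPM (log2 2.59). C1qa, the complement gene of tissue macrophages, was at 0 in both groups. Cd68 did not pass (log2 −0.11, adjusted p = 0.522).

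Of 12 antigen presentation and dendritic genes only 5 passed the filter, and all 5 rose, with a median of 1.73. The list summed to no more than 61.4 CPM in any library of the comparison. Cd74, at 0.115 to 0.174 CPM in CSF3R_ONLY, passed the filter only through groups where it was higher. H2-Ab1, an MHC class II chain, had 0.934, 0.637 and 0.577 CPM in the CSF3R_ONLY libraries and 8.42, 7.03 and 8.67 CPM in the CSF3R_FIRST libraries (log2 3.48, SE 0.27, adjusted p = 3.16e-08), and Cd74, the invariant chain, had 0.117, 0.174 and 0.115 CPM in the CSF3R_ONLY libraries and 6.8, 6.85 and 6.55 CPM in the CSF3R_FIRST libraries (log2 5.57, SE 0.37, adjusted p = 6.35e-09). H2-Aa, H2-Eb1, Xcr1 and Siglech were at 0 in both groups. H2-Ab1 fell with the fusion in control cells, at 4.59 ± 1.53 CPM in EMPTY and 1.13 ± 0.201 CPM in RUNX1-ETO_ONLY (difference 5.48 on the log2 scale, interval 4.69 to 6.27, adjusted p = 6.81e-08).

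Erythroid and megakaryocyte genes rose in 10 of 18 tested and fell in 6, with a median of 0.52. Gata1, a factor of erythroid, megakaryocyte and mast cells, had 34.8, 35 and 34.3 CPM in the CSF3R_ONLY libraries and 137, 127 and 146 CPM in the CSF3R_FIRST libraries (log2 1.98, SE 0.12, adjusted p = 1.89e-09). Pf4, platelet factor 4, rose from 3.01 ± 0.509 to 13.5 ± 3 CPM (log2 2.16), and Itga2b, the platelet integrin chain, rose only from 241 ± 2.41 to 279.6 ± 13 CPM (log2 0.22, SE 0.07, adjusted p = 0.0142). Globin and carbonic anhydrase genes of red cells did not move together. Hbb-bs, a beta-globin, had 263 counts in CSF3R_ONLY and 0 in CSF3R_FIRST and was at least 28.3-fold lower against a floor of 3 counts per library. Car1 had 419 counts and 1 count, a ratio of 405 with an exact 95% counting interval of 72.3 to 16043. Hbb-bt, a beta-globin so close to Hbb-bs that the counting could split their reads, rose from 0.851 ± 0.441 to 3.5 ± 0.374 CPM (log2 2.03, adjusted p = 0.000178), and it is named after its values were seen. The alpha-globin Hba-a1, named in the same way and a close copy of Hba-a2, fell from 1.51 ± 0.875 to 0.62 ± 0.096 CPM with groups that overlapped (log2 −1.27, adjusted p = 0.04). Car2 did not pass (log2 −0.11, interval −0.30 to 0.08, adjusted p = 0.353). Klf1, the erythroid factor that activates beta-globin, fell from 5.34 ± 0.698 to 2.71 ± 0.905 CPM (log2 −0.98, adjusted p = 0.0218). Summed over the list, levels were 923 to 983 CPM in CSF3R_ONLY and 1156 to 1194 CPM in CSF3R_FIRST, and Alas2, of haem synthesis, was at 0 in CSF3R_FIRST.

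Stem and progenitor genes rose in 8 of 18 tested, fell in 5 and did not pass in 5, with a median of 0.27. Over all genes tested 22.3% were higher and 22.6% lower. Ly6a, the gene for Sca-1, a marker of mouse stem and progenitor cells that mast cells can also carry, had 50.6, 58.1 and 52.7 CPM in the CSF3R_ONLY libraries and 889, 878 and 1065 CPM in the CSF3R_FIRST libraries (log2 4.13, SE 0.16, adjusted p = 1.06e-11). Cd34, a progenitor antigen that is held by a further list below, had 162, 169 and 163 CPM in the CSF3R_ONLY libraries and 823, 761 and 792 CPM in the CSF3R_FIRST libraries, and the groups did not overlap (log2 2.27, SE 0.07, adjusted p = 1.33e-12). Eng, endoglin, went from 1.06 ± 0.24 to 14.2 ± 0.863 CPM (log2 3.73) and Egfl7 from 4.4 ± 1.25 to 23.1 ± 2.75 CPM (log2 2.39). Prom1 fell from 29.6 ± 3.31 to 3.3 ± 0.167 CPM (log2 −3.16, SE 0.16, adjusted p = 2.3e-10), while the transcription factors Erg (log2 0.04, interval −0.19 to 0.28, adjusted p = 0.772) and Lyl1 (log2 −0.06, interval −0.23 to 0.11, adjusted p = 0.566) did not pass.

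Genes of DNA replication and mitosis were lower in CSF3R_FIRST in 20 of 21 tested, with a median log2 change of −0.71. Mki67, the proliferation marker Ki-67 (chromosome 7, 135689784 to 135716361, minus strand), had 979, 923 and 849 CPM in the CSF3R_ONLY libraries and 317, 340.0 and 252 CPM in the CSF3R_FIRST libraries. It fell 3.03-fold (log2 −1.60, SE 0.32, adjusted p = 0.00076), with replicate 3 the lowest, and by 1.45 on the log2 scale without that library. Rrm2, a subunit of the enzyme that makes deoxynucleotides, had 366, 371 and 367 CPM in the CSF3R_ONLY libraries and 162, 169.9 and 168 CPM in the CSF3R_FIRST libraries (log2 −1.14, SE 0.06, adjusted p = 4.94e-10). Aurkb, the kinase of chromosome segregation, went from 172 ± 11.8 to 80.04 ± 0.605 CPM (log2 −1.11) and the checkpoint kinase gene Bub1 from 133 ± 7.17 to 70.3 ± 0.517 CPM (log2 −0.92). Apart from Mki67, the falls in this list were smaller, from −0.44 to −1.14 on the log2 scale. Tyms, thymidylate synthase, did not pass (log2 0.22, interval −0.01 to 0.45, adjusted p = 0.109).

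In control cells the same list had a median of −0.07, with 8 of 21 lower and 2 higher. The change was lower in receptor cells for 18 of 21 genes and for 17 without CSF3R_FIRST replicate 3. Aurkb was at 153 ± 12.6 CPM in EMPTY and 123 ± 10.1 CPM in RUNX1-ETO_ONLY (difference −0.79 on the log2 scale, interval −1.03 to −0.55, adjusted p = 0.000115). Mki67 was at 539 ± 246 CPM in EMPTY and 542 ± 171 CPM in RUNX1-ETO_ONLY (difference −1.60 on the log2 scale, interval −2.56 to −0.65, adjusted p = 0.017), and its difference did not pass without CSF3R_FIRST replicate 3 (adjusted p = 0.0546), without RUNX1-ETO_ONLY replicate 2 (adjusted p = 0.0543) or without EMPTY replicate 3 (adjusted p = 0.0517). Of 16 ribosome biogenesis genes, 1 fell and 0 rose, with a median of −0.09. The gene was Bop1 (log2 −0.22, adjusted p = 0.0402), and it did not pass in 4 of the 6 fits that left out 1 library of the compared groups (adjusted p up to 0.298). BCL2 family genes, which set the threshold for cell death, rose in 3 of 10 and fell in 0, with a median of 0.24. Over all genes tested 22.3% rose and 22.6% fell. The 3 were the death-promoting Bbc3, Bcl2l11 and Pmaip1 at log2 0.57, log2 0.51 and log2 0.45, while Bak1 and Bid did not pass. Bcl2l1, the survival gene for BCL-XL, is of the same family but was counted in the STAT3 and STAT5 list; named after its values were seen, it rose from 54.2 ± 1.51 to 93.6 ± 3.28 CPM (log2 0.79, SE 0.09, adjusted p = 2.09e-06).

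**Figure D4:**
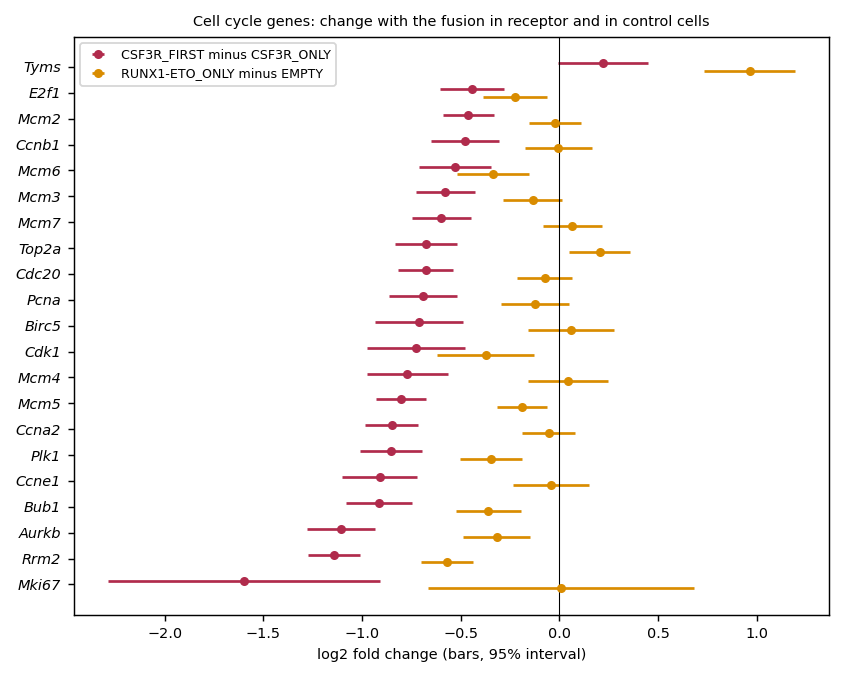
Log2 fold change of 21 cell cycle genes with the fusion in receptor cells (red) and in control cells (orange), with bars for 95% intervals. In receptor cells 20 of the 21 lie below 0 with a median of −0.71, and in control cells the median is −0.07.

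Feedback and target genes of cytokine signalling were mostly higher with the fusion. In the STAT3 and STAT5 list 10 of 17 rose and 3 fell, with a median of 0.79. Cish, an inhibitor induced by STAT5, had 29.9, 32.7 and 31.9 CPM in the CSF3R_ONLY libraries and 197, 194 and 197 CPM in the CSF3R_FIRST libraries (log2 2.64, SE 0.07, adjusted p = 4.25e-13). Socs1, another feedback inhibitor of JAK kinases, had 8.05, 8.39 and 7.79 CPM in the CSF3R_ONLY libraries and 53.6, 48.8 and 54.4 CPM in the CSF3R_FIRST libraries (log2 2.69, SE 0.12, adjusted p = 5.11e-11), and the groups lay far apart. The cytokine gene Osm rose from 21.4 ± 1.29 to 149.9 ± 4.18 CPM (log2 2.81) and Gadd45g from 3.11 ± 0.745 to 21.4 ± 2.51 CPM (log2 2.78). Myc (log2 −0.06, interval −0.22 to 0.11, adjusted p = 0.579) and Mcl1 (log2 0.03, interval −0.10 to 0.17, adjusted p = 0.721) did not pass. In control cells 12 of the 17 rose, with a median of 0.81. The differences for Cish (difference −0.14 on the log2 scale, interval −0.36 to 0.08, adjusted p = 0.348) and Socs1 (difference −0.09 on the log2 scale, interval −0.56 to 0.38, adjusted p = 0.813) did not pass.

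Of 16 genes of ERK feedback, 13 rose and 2 fell, with a median of 0.84. Phlda1, an ERK-induced gene, had 2.04, 1.51 and 2.02 CPM in the CSF3R_ONLY libraries and 30.3, 24.7 and 27.3 CPM in the CSF3R_FIRST libraries (log2 3.88, SE 0.21, adjusted p = 3.78e-10). The phosphatase genes Dusp4 and Dusp5, which switch off MAP kinases, rose from 2.42 ± 0.137 to 10.3 ± 1.72 CPM and from 10.2 ± 0.433 to 38.4 ± 3.63 CPM. Spry4, an inhibitor of receptor signalling to RAS, was scarce and fell from 0.772 ± 0.238 to 0.14 ± 0.0923 CPM (log2 −2.41, adjusted p = 0.00103). The change was higher in receptor cells for 7 of the 16 genes and lower for 1.

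NF-kB target and inflammatory genes rose in 11 of 18 and fell in 3, with a median of 0.96. Il6 had 8.17, 7.29 and 7.56 CPM in the CSF3R_ONLY libraries and 92.2, 99.8 and 114 CPM in the CSF3R_FIRST libraries, and the chemokine Ccl3 had 19.2, 16.7 and 15.1 CPM in the CSF3R_ONLY libraries and 179, 162 and 210.3 CPM in the CSF3R_FIRST libraries. Both were several times higher in every library with the fusion (log2 3.73, SE 0.12, adjusted p = 1.86e-12 for Il6). Ccl2, which attracts monocytes, went from 4.7 ± 0.959 to 66.2 ± 5.24 CPM (log2 3.82) and Ccl4 from 3.94 ± 1.12 to 55.4 ± 5.39 CPM (log2 3.81), whereas the subunit genes Nfkb1 (log2 0.04, interval −0.11 to 0.19, adjusted p = 0.669) and Nfkb2 (log2 0.06, interval −0.11 to 0.23, adjusted p = 0.575) did not pass. Activated mast cells also make these cytokines, and the list is not specific to a pathway. In control cells 15 of the 18 rose, with a median of 0.68. The change was lower in receptor cells for 8 of them and higher for 3. Interferon response genes rose in 4 and fell in 4 of 16, with a median of −0.09. These shares lay near those over all genes tested, 22.3% higher and 22.6% lower. Ifit2 fell from 6.5 ± 0.83 to 0.918 ± 0.221 CPM (log2 −2.81, adjusted p = 1.75e-05) and Bst2 rose from 19.9 ± 0.639 to 52.9 ± 4.04 CPM (log2 1.41, adjusted p = 2.85e-07).

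In a list of genes that earlier work described as raised by the fusion, 4 of 6 rose and 0 fell, with a median of 1.11. Besides Cd34, Jup, plakoglobin, had 29.99, 31.1 and 30.2 CPM in the CSF3R_ONLY libraries and 86.6, 79.9 and 79.5 CPM in the CSF3R_FIRST libraries (log2 1.43, SE 0.08, adjusted p = 5.09e-10), and Cdkn1a, the cell cycle inhibitor p21, had 312, 318 and 301 CPM in the CSF3R_ONLY libraries and 554, 500.1 and 557 CPM in the CSF3R_FIRST libraries (log2 0.79, SE 0.10, adjusted p = 6.72e-06). Cdkn1a had not moved past the threshold in control cells, at 175 ± 26.8 CPM in EMPTY and 172 ± 5.61 CPM in RUNX1-ETO_ONLY (difference 0.82 on the log2 scale, interval 0.52 to 1.11, adjusted p = 0.000492). Pou4f1 was scarce and rose from 0.715 ± 0.179 to 2.12 ± 0.895 CPM (log2 1.56, adjusted p = 0.00272). In the matching list of genes described as lowered, 5 of 9 fell and 2 rose, with a median of −0.81. The 5 were Cebpa, Cebpe, Spi1, Mpo and Elane, which other lists here also hold, and Lat2, an adaptor of mast and B cells, went against the description, from 53.6 ± 2.09 to 159 ± 2.61 CPM (log2 1.57).

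Adhesion and matrix genes moved in both directions, and those named here were picked from the largest changes of their lists. Over all genes tested 22.3% rose and 22.6% fell. Of 13 junction and cytoskeleton genes, 7 rose and 4 fell, with a median of 0.46. Tjp1, the tight junction scaffold ZO-1, had 0.292, 0.926 and 0.288 CPM in the CSF3R_ONLY libraries and 47.9, 43.3 and 37.4 CPM in the CSF3R_FIRST libraries (log2 6.40, SE 0.31, adjusted p = 9.7e-10), and the actin nucleator Cobl went from 0.869 ± 0.302 to 53.2 ± 3.18 CPM (log2 5.92). Ncam1, a cell adhesion molecule, fell from 23.9 ± 1.5 to 2.14 ± 0.686 CPM (log2 −3.48). Of 10 matrix genes, 4 rose and 3 fell, with a median of −0.08. Thbs1, thrombospondin 1 (chromosome 2, 118111876 to 118127133, plus strand), had 1355, 1416 and 1414 CPM in the CSF3R_ONLY libraries and 69, 63.7 and 54.4 CPM in the CSF3R_FIRST libraries, a 22.4-fold fall (log2 −4.48, SE 0.20, adjusted p = 7.18e-11). It fell likewise in control cells, at 1736 ± 476 CPM in EMPTY and 65 ± 3.49 CPM in RUNX1-ETO_ONLY (difference 0.25 on the log2 scale, interval −0.28 to 0.79, adjusted p = 0.504). Col5a3, a fibrillar collagen chain, had 2.98, 2.95 and 3.06 CPM in the CSF3R_ONLY libraries and 49.5, 45.8 and 45.6 CPM in the CSF3R_FIRST libraries and rose in receptor cells (log2 3.97, SE 0.19, adjusted p = 1.05e-10), and its change in control cells did not pass (log2 −0.25, adjusted p = 0.324).

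Among the named genes with the largest rises were several that no list held. Gask1b had 0.817, 0.811 and 1.21 CPM in the CSF3R_ONLY libraries and 105, 93.2 and 100.3 CPM in the CSF3R_FIRST libraries (log2 6.71, SE 0.12, adjusted p = 6.12e-15). Cd55, which shields cells from complement, went from 21.4 ± 1.76 to 557 ± 3.93 CPM (log2 4.70, SE 0.12, adjusted p = 1.9e-13). Ptprf, a receptor phosphatase, was log2 4.78, the proteoglycan gene Gpc4 log2 4.65, Frmpd1 log2 5.05 and Il10ra, the IL-10 receptor chain, log2 4.48. Among the largest falls, Clec12a, an inhibitory receptor of myeloid cells, was log2 −4.15, Ifitm3, which restricts virus entry, log2 −3.79, the acid phosphatase gene Acpp log2 −4.10, Megf9 log2 −3.86, the small GTPase gene Rhou log2 −3.70 and Far2, of fatty alcohol synthesis, log2 −3.67. All of these passed the threshold with groups that did not overlap, which the choice of these genes required.

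Across the whole table, 1604 genes rose with the fusion in both receptor and control cells, 54.9% of the 2924 that rose in receptor cells and 58.9% of the 2724 that rose in control cells. Of the rest of the 2924, 196 fell in control cells and 1124 did not pass there. For falls, 1313 genes were shared, 44.2% of 2971 and 54.9% of 2393, while 174 rose in control cells and 1484 did not pass there.

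**Figure D5:**
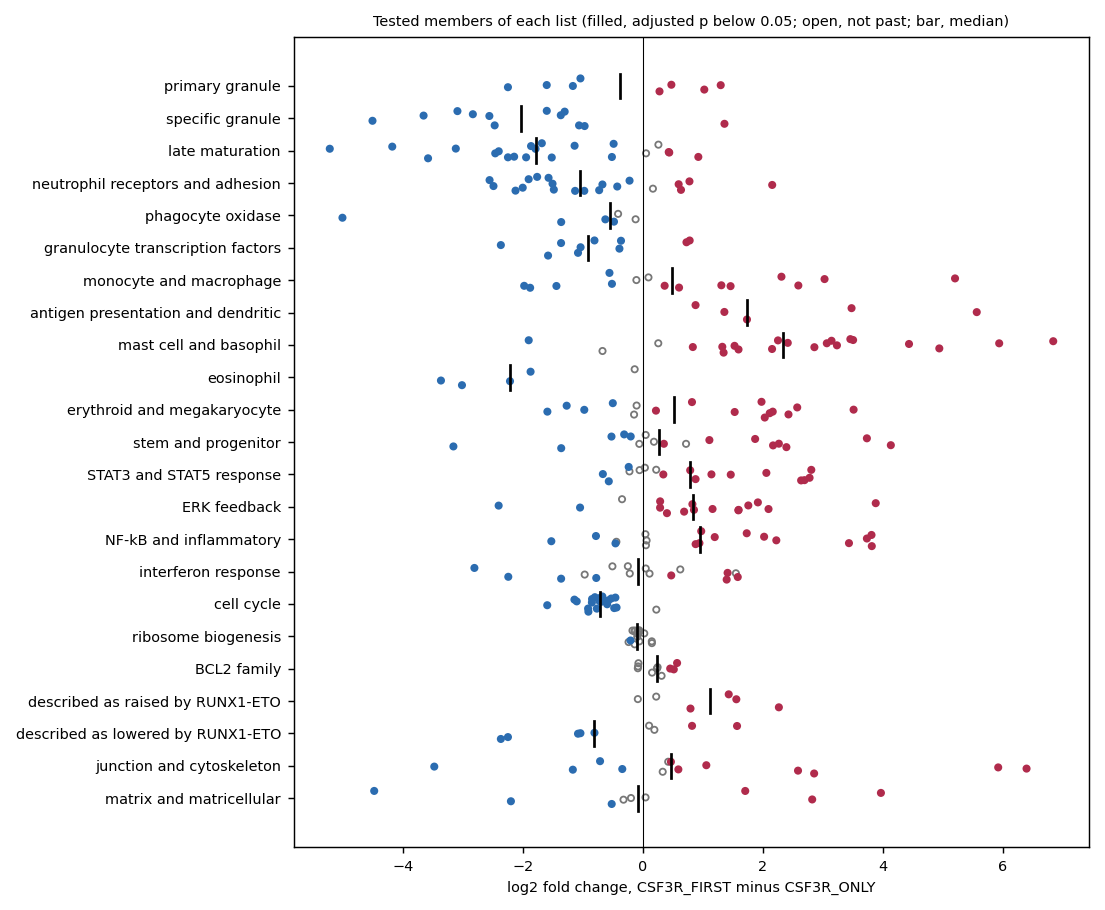
Log2 fold change, CSF3R_FIRST minus CSF3R_ONLY, of tested genes in 23 lists, with filled points past the threshold (red higher, blue lower), open points not past it and a bar at the median of the list; genes with 3 or fewer counts in either group are not drawn. Specific granule (median −2.04) and late maturation genes (−1.79) lie mostly left of 0, and mast cell and basophil genes (2.33) mostly right of it.

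Markers of other cells were mostly low or at 0. Of 15 lymphoid genes only 4 passed the filter, and Cd3e, Cd4, Cd8a, Ms4a1 and Pax5 were at 0 in both groups. The summed lymphoid level was 41.1 to 42.5 CPM in CSF3R_ONLY and 123.5 to 124.6 CPM in CSF3R_FIRST, carried by Il7r, the IL-7 receptor chain, which went from 28.5 ± 1.01 to 120.0 ± 0.675 CPM (log2 2.07). Of 10 stromal and endothelial genes, Col1a2, Col3a1, Dcn, Lum and Kdr were at 0 in both groups. Pecam1 and Pdgfrb, which blood cells can also express, rose from 333 ± 4.91 to 798 ± 10.9 CPM and from 30.7 ± 1.73 to 69 ± 5.38 CPM, and the list summed to 357 to 369 CPM in CSF3R_ONLY and 858 to 880.1 CPM in CSF3R_FIRST. The part of these markers in the results was not tested. Of the label Blood, the myeloid markers Mpo, Elane and Cpa3 were abundant in both groups.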

How the data were processed

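The deposited table held raw counts per gene symbol for 15 libraries and 52328 entries. The authors used Trimmomatic, STAR, DESeq2 and the mouse build mm10, per the submitters' processing notes, which give neither versions nor roles. The counting tool, the annotation and the strand setting were not stated in what was used here, so genes overlapping on opposite strands are uncertain. RNA was purified on columns with a DNase step and sequenced on a BGI DNBSEQ instrument, per the labels' protocols. An entry that named no gene took 0.0179% to 0.0305% of counts and was left out.

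Libraries were grouped by label. Genes were filtered by edgeR (4.0.16, in R 4.3.3) with its default rule by group, scaled by TMM and fitted by robust quasi-likelihood with 5 group means over all 15 libraries, leaving 10 residual degrees of freedom. The test was two-sided with Benjamini-Hochberg adjustment over 13123 genes and a threshold of 0.05. The same fit tested the change with the fusion in receptor cells minus that in control cells. All p-values called adjusted come from edgeR unless another tool is named. Intervals are 95% intervals, and counting intervals and floors cover counting error only. The steps were tested on simulated data. Across genes, deviations of same-numbered libraries of RUNX1-ETO_ONLY and EMPTY correlated at 0.284, 0.283 and 0.455, and unlike-numbered ones at 0.138 or less. Those of same-numbered libraries of CSF3R_FIRST and EMPTY correlated at 0.165, 0.136 and 0.37. Unlike-numbered libraries that were both low in long transcripts correlated too. RUNX1-ETO_FIRST replicate 1 did so with EMPTY replicate 3 at 0.376 and with RUNX1-ETO_ONLY replicate 3 at 0.270. The labels do not say what a number marks, and these correlations do not establish that the numbers pair libraries.

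The genes named are the altered genes, the 12 largest rises and 12 largest falls with a mean log2 CPM (prior count 2) of at least 3 and no overlap between groups, the 5 largest differences in each direction, up to 4 members past the threshold and 2 not past it per list, defining markers, and all members of 5 neutrophil lists. Gene models without a proper name were left out of the largest changes. Some genes that this rule names are not reported here. The members and the 26 lists were chosen with earlier results of these data known. Alternatives were DESeq2 (1.42.0), limma-voom (3.58.1), other scaling, no filter, only the compared groups, a replicate block, each library left out in turn, and the 4 libraries low in long transcripts left out. Gene positions are from GENCODE M21 (mm10), which matched 12820 of the genes tested, and promoters from RefSeq (GRCm38.p6).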

Additional observations from a re-analysis of the deposited data

Results flagged for a closer look

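The change with the fusion differed between receptor cells and control cells for 3004 genes, by a test of the difference itself in edgeR. Higher changes in receptor cells were found for Col5a3 (4.21 on the log2 scale), the transcription factor gene Pou2f2 (3.51), Tnfrsf8, the gene for CD30 (3.43), Ptprf (3.39) and the serine protease gene St14 (3.34). Pou2f2 was at 34.4 ± 7.25 CPM in EMPTY and 18.6 ± 1.8 CPM in RUNX1-ETO_ONLY, and it went from 2.59 ± 0.417 to 15.9 ± 1.97 CPM in receptor cells. Tnfrsf8 was at 4.87 ± 0.596 CPM in EMPTY and 4.34 ± 0.719 CPM in RUNX1-ETO_ONLY, against 5.06 ± 0.14 to 48.6 ± 1.39 CPM in receptor cells, and St14 was at 21.2 ± 4.95 CPM in EMPTY and 3.67 ± 0.365 CPM in RUNX1-ETO_ONLY, against 9.45 ± 0.69 to 16.5 ± 2.87 CPM.

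Lower changes in receptor cells were found for Mcpt4 (−5.64), the ectonucleotidase gene Entpd3 (−5.11), Gfi1b, a factor of erythroid and megakaryocyte cells (−4.92), Cd55 (−4.37) and Cybb (−4.16). Mcpt4 had 2 counts in all of EMPTY, so its fitted difference depends on the prior count. Entpd3 was at 0.132 ± 0.0843 CPM in EMPTY and 10.4 ± 1.11 CPM in RUNX1-ETO_ONLY, against 44.7 ± 1.17 to 96.7 ± 2.41 CPM in receptor cells. Gfi1b was at 1.52 ± 0.152 CPM in EMPTY and 41.5 ± 0.986 CPM in RUNX1-ETO_ONLY, against 18.3 ± 0.74 to 16.5 ± 2.81 CPM. Cd55 was at 0.0736 ± 0.0841 CPM in EMPTY and 44.5 ± 1.69 CPM in RUNX1-ETO_ONLY.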

How the results depend on the processing

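No value past the threshold in either fit changed sign under any alternative run. Of 6050 alternative values for named genes, 170 in 45 results did change sign, all with neither value past the threshold. In the main comparison, genes higher and lower numbered 3177 and 2823 with DESeq2, 3092 and 2734 with its size factors in edgeR, 2520 and 3642 with library sizes alone, 3048 and 2528 with no filter, 3566 and 3445 with only the compared groups, 3621 and 3911 with limma-voom, and 3855 and 3769 without the 4 libraries whose long transcripts were low. The difference test gave 2725 lower genes with library sizes alone and 2181 higher genes without those 4 libraries. Leaving out 1 library at a time gave 5107 to 5332 genes in the main comparison, and 2466 to 3174 in the difference test. Members lower then ran from 3 to 4 for both the monocyte and the stem list and from 0 to 1 for ribosome biogenesis.

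Stem members lower were 3, and ribosome members lower 0, with DESeq2, its size factors and no filter. Ribosome members lower were 5 with library sizes alone, and 3 with only the compared groups, without the 4 libraries and with limma-voom; 1 was higher in the first 2 of these 3 fits. Mast cell members lower were 2 with library sizes alone, only the compared groups, the replicate block, limma-voom and the fit without the 4 libraries. Cell cycle members higher were 1, and BCL2 members higher 5, with only the compared groups and with limma-voom, and 1 and 6 without the 4 libraries. Lymphoid members higher were 1 with only the compared groups. The fit with only the compared groups gave no value for Cd79b and Dntt, which its filter removed. The cause of these shifts was not tested.

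Same-numbered libraries of CSF3R_FIRST and CSF3R_ONLY did not deviate together, with correlations of −0.0417, 0.00028 and −0.046 across genes. With the replicate block 3001 genes were higher and 3096 lower, and the difference test gave 1443 and 1780. In control cells, a block added after seeing the data gave 2809 higher and 2453 lower genes. Among values printed for single genes in control cells it changed no call, and among printed differences it changed that of Cebpe. Difference calls lost without 1 library include Ifitm6 (RUNX1-ETO_ONLY replicate 2, adjusted p = 0.0721) and Mmp25 (RUNX1-ETO_ONLY replicate 1, adjusted p = 0.326). With 3 libraries per group and unknown culture origin, small changes cannot be separated from culture or handling, and scarce genes such as Ly6g, Camp and Spry4 rest on few counts.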

Other observations

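Other gene families were described after their values were seen, each as all tested genes that share a symbol stem. Of 7 genes named for interferon-induced transmembrane proteins, some of which restrict virus entry, 4 fell and 0 rose, with a median log2 change of −0.47. Ifitm5, Ifitm7 and Ifitm10 were scarce in both groups and did not pass. Ifitm1 went from 3459 ± 97.4 to 346 ± 50.9 CPM (log2 −3.32, SE 0.22, adjusted p = 4.75e-09). All 4 tested CD200 receptor genes, which encode paired receptors of myeloid and mast cells, rose, with a median of 2.62, and Cd200r4 went from 21.3 ± 1.17 to 397 ± 19.5 CPM (log2 4.22). Of 9 CC chemokine genes, 6 rose and 1 fell, with a median of 2.78. Ccl7, which attracts monocytes, went from 0.155 ± 0.178 to 19.7 ± 3.52 CPM (log2 6.93, SE 0.38, adjusted p = 4.44e-09), and Ccl6, a chemokine of myeloid cells, fell from 49.7 ± 2.87 to 24.8 ± 3.49 CPM (adjusted p = 1.31e-06).

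Toll-like receptors, sensors of microbial products, rose in 4 and fell in 3 of 10, with a median of 0.41. Tlr7, which senses RNA, fell from 2.22 ± 0.209 to 0.238 ± 0.154 CPM (log2 −3.18, SE 0.41, adjusted p = 9.19e-06), and Tlr13, which senses bacterial RNA in mice, fell from 12.8 ± 0.69 to 3.59 ± 0.771 CPM (log2 −1.84). Of 29 interleukin receptor chains, 12 rose and 8 fell, with a median of 0.08. Il2ra, the IL-2 receptor alpha chain, rose from 4.37 ± 0.49 to 27.5 ± 0.446 CPM (log2 2.65) and Il18r1 from 2.65 ± 0.173 to 14 ± 2.11 CPM (log2 2.40), and Il6ra fell from 19.95 ± 2.6 to 7.18 ± 1.1 CPM (log2 −1.47). Over all genes tested the median was −0.02, with 22.3% higher and 22.6% lower.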
